A study of Drosophila melanogaster with 3 samples.

Results

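Mesoderm and muscle genes are described here by where the Dbx-eGFP fusion protein was found on and around them in Drosophila melanogaster embryos. The 32 genes, out of 13945 protein-coding genes on chromosome arms 2L, 2R, 3L, 3R, 4 and X, were taken by name: 14 transcription factors, called regulators below (twi, Mef2, tin, bap, bin, nau, slou, lbe, Doc1, Doc2, Doc3, pnr, H15 and mid), 4 genes of myoblast fusion (kirre, sns, mbc and rols), 11 genes of contractile proteins (Mhc, Act57B, Act87E, Mlc1, Mlc2, up, wupA, Tm1, Tm2, bt and sls) and 3 others (how, if and htl). The data are ChIP-seq, the sequencing of DNA recovered with a protein by an antibody, here one against GFP. Whole embryos aged 8 to 24 h of the transgenic strain Dbx-GFP, which carries an insertion targeting Dbx, gave chromatin sonicated to 200 to 800 bp. There was 1 group, with 3 biological replicates. The whole embryo holds every tissue, so a peak cannot be assigned to muscle cells, and fewer cells with a bound site and less binding per cell cannot be told apart. The lists of a control experiment were not analysed here, and how far the peaks depend on the fusion protein was not tested.

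In the fly embryo, Twist starts the mesoderm programme, and Tinman (tin), Bagpipe (bap), Biniou (bin), the Dorsocross T-box factors (Doc1, Doc2 and Doc3), Pannier (pnr) and the T-box pair H15 and mid (midline) pattern the heart and the gut muscle. Nautilus (nau), Slouch (slou) and Ladybird early (lbe) give single body wall muscles their identity, and Mef2 switches on the genes of muscle differentiation. Founder and fusion-competent myoblasts recognise each other through the immunoglobulin proteins Kirre and Sns, signal through Rols and Mbc, and fuse, after which the fibres make myosin, actin, tropomyosin, troponin and the giant elastic proteins of the sarcomere. Dbx itself is a homeodomain factor known from interneurons.

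A summit, the position of highest signal in a peak, was counted for a gene when it lay in the annotated gene body or within 2 kb on either side, here called the gene's window. The conservative list, 1 of the series-level lists made by the authors from all replicates, held 4943 peaks, and the lists of replicates 1, 2 and 3 held 3701, 3353 and 2519. Rank 1 is the peak of highest signal in its own list. The depth of sequencing behind these lists is unknown.

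The best-ranked summits in the windows of these genes were those of Mef2, kirre and tin, while most contractile protein genes carried a weak summit or none. The top summit of Mef2 and the summits of kirre found in all 3 replicates lay nearest to starts of other genes. In the conservative list 20 of the 32 genes (62.5%) had a summit in their window, where 39.3% of all protein-coding genes had one. They were 7 of 14 regulators, all 4 fusion genes, 7 of 11 contractile protein genes, and how and if. In replicates 1, 2 and 3 the count was 14, 11 and 10 of 32, a mean of 11.7 ± 2.08 (SD, n = 3), or 36.5% ± 6.51. All protein-coding genes stood at 32.4%, 31.3% and 25.4% in the same lists, so the members' shares of 43.8%, 34.4% and 31.2% were nearer to the background in single replicates than in the conservative list. A recurrent peak, one of the conservative list with an overlapping peak in each of the 3 replicates, lay in the window of 8 members (25.0%), against 19.7% of all genes.

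Summit sequences at the best-ranked site of 6 of these 8 members are printed first, because the results turn on these sites. Each is the 201 bases centred on the conservative summit, read 5′ to 3′ on the plus strand of the dm6 assembly from the RefSeq sequence. Capitals mark the only matches, on either strand, to 7 short words listed further on. In tin the capitals are CATATG, an E-box of the kind that Twist binds, from 1 bp before to 4 bp after the summit, and in mbc they are the reverse complement of GGTCACA, a word of the promoter factor M1BP, from 87 to 93 bp after it. The other 4 windows held none of the words.

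kirre, an intron, chrX:2786679-2786879: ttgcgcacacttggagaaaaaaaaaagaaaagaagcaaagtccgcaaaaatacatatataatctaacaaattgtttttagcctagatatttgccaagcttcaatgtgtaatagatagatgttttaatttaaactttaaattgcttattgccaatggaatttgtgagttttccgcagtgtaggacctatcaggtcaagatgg

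tin, the promoter, chr3R:21378706-21378906: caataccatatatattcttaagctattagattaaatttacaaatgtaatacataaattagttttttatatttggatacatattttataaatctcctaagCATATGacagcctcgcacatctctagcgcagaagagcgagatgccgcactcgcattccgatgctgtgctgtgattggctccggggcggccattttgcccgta

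if, 3′ of the gene at the promoter of goe, chrX:16751840-16752040: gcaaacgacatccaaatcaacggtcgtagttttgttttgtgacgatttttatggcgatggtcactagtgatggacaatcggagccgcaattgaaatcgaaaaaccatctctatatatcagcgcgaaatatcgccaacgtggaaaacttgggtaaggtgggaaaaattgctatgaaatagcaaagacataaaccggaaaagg

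sls, just upstream of the start, chr3L:2115786-2115986: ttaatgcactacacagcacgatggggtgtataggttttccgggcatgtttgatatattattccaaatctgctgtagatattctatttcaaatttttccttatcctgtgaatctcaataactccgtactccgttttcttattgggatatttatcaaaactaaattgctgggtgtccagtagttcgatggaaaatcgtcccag

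mbc, in the promoters of mbc and Nup98-96, chr3R:23781482-23781682: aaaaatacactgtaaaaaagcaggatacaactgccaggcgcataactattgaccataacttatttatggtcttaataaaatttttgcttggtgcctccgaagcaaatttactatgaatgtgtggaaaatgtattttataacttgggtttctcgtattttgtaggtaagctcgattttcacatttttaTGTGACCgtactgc

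how, an intron, chr3R:22049226-22049426: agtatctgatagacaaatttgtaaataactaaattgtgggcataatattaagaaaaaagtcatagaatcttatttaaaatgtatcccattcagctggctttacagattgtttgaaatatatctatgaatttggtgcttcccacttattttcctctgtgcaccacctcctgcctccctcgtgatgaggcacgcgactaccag

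**Figure D1:**
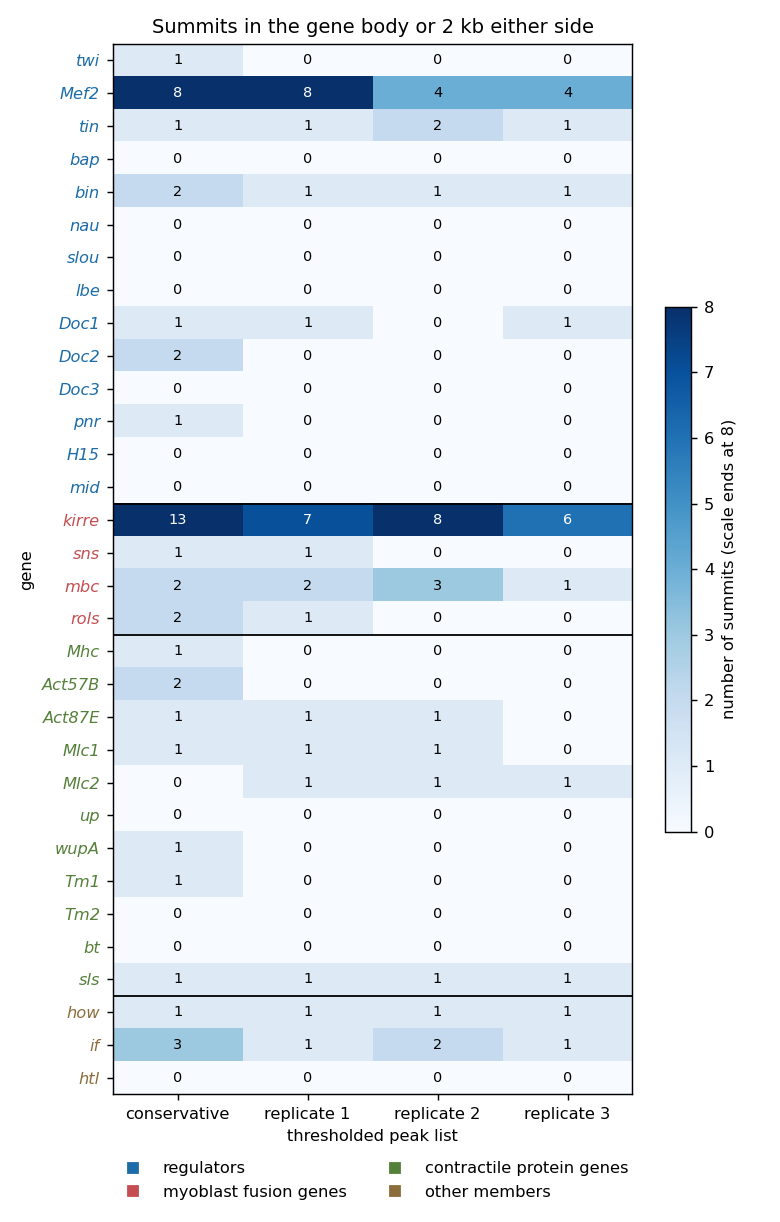
Number of summits in the gene body or 2 kb either side for each of the 32 genes (rows, coloured by group) in the conservative list and the 3 replicate lists (columns). Mef2 and kirre hold 8 and 13 conservative summits, and bap, nau, slou, lbe, Doc3, H15, mid, up, Tm2, bt and htl hold 0 in all 4 lists.

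Mef2 (FBgn0011656, 2R 9913496 to 9958858, minus strand) was the regulator with the most sites. The MADS-box factor it encodes binds the promoters and enhancers of muscle structural genes. Its window held 8 summits in the conservative list, and 8, 4 and 4 in replicates 1, 2 and 3. The strongest, at 9959904 with a signal of 1072, ranked 51 in the conservative list and 58, 43 and 52 in replicates 1, 2 and 3. It lay 1046 bp upstream of the Mef2 start and 172 bp from that of Pdrg1, and so in the promoter of a neighbouring gene. In replicate 1 the summit, at 9959930, was instead nearest to the start of Pal1, at 148 bp. The site thus lies near the starts of both Pdrg1 and Pal1.

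Of the other 7 Mef2 summits, those at 9942977 (rank 546) and 9949239 (rank 848) were also found in all 3 replicate lists. The first lay in a 5′ UTR of Mef2, 1787 bp downstream of an annotated start, and ranked 979, 355 and 693 in replicates 1, 2 and 3, with signals of 85.6, 156 and 92.5. The second lay in an intron, 4475 bp from the nearest Mef2 start, and ranked 747, 636 and 1190, with signals of 99.4, 115 and 65.6. Both were present in every replicate, and the replicates did not share one order of the 2 sites. The summit at the Mef2 promoter itself, at 9958889 and 31 bp upstream of the start, was weaker, with rank 2232 in the conservative list and ranks 1851 and 1418 in replicates 1 and 2. Replicate 3 had no peak there. The remaining 4 ranked between 2328 and 4466, in introns and a 5′ UTR, and overlapped a peak in 1 replicate list (3 of them) or in 2 (1 of them).

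**Figure D2:**
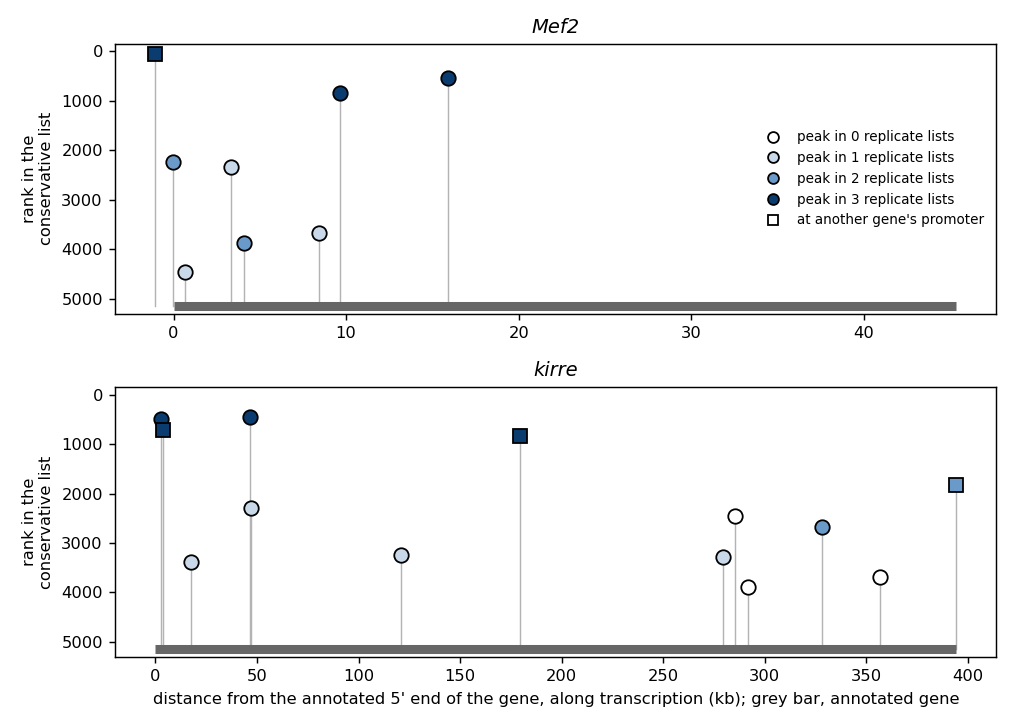
Conservative summits in the windows of Mef2 (upper) and kirre (lower) by distance in kb from the annotated 5′ end (x axis) and rank in the conservative list (y axis, high ranks at the top). Shade gives the number of replicate lists with an overlapping peak and squares are summits at another gene's promoter. In Mef2 the deepest shade falls on ranks 51, 546 and 848, and the first of these is a square.

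tin (FBgn0004110, 3R 21378977 to 21381970, plus strand), the NK-class homeodomain factor that heart formation requires, had its site in its own promoter. The summit at 21378806 lay 171 bp upstream of the only annotated start, in the window printed above. Its signal was 368 (rank 469) in the conservative list, and 136 (rank 379), 137 (rank 473) and 107 (rank 538) in replicates 1, 2 and 3. All 3 replicates had it among the upper ranks of their list. Replicate 2 alone had another summit in the tin window, at 21377301 and rank 1986, 100 bp from a start of mod(mdg4).

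bap (FBgn0004862, 3R 21388880 to 21390449), which lies next to tin in the same cluster of homeobox genes and acts in gut muscle, had a summit in none of the lists. lbe, of the same cluster, and slou, a homeodomain factor of muscle founder cells, had none either. In the ranked lists, which hold weaker peaks with their irreproducible discovery rate (IDR), the best peak of the bap window had a −log10 IDR of 0.17 in replicate 2 and 1.21 in replicate 3, and replicate 1 had no peak there. The best of lbe reached 0.19, 0.92 and 0.36 in replicates 1, 2 and 3, and that of slou 0.38, 0.29 and 0.44. No peak of the thresholded lists was below 2, taken here as the threshold. tin was at 5, the highest value the lists hold, in each replicate, while bap, lbe and slou were below 2.

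bin (FBgn0045759, 3L 6990622 to 6994447, plus strand), a FoxF forkhead factor of visceral mesoderm, had a site upstream of its start that recurred. The conservative list gave it 2 overlapping peaks with summits at 6989216 (rank 1452) and 6989415 (rank 2421), 1406 and 1207 bp upstream. Each replicate list had 1 peak there, with ranks 1453, 1597 and 1646 and signals of 68.6, 69.6 and 52.6 in replicates 1, 2 and 3, so the 2 conservative summits stand for 1 site.

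The Dorsocross genes, 3 T-box factors side by side on 3L, had sites between and outside the genes and none past the threshold at a start. Doc1 had a summit at 9045463 (rank 2295), in intergenic sequence 3634 bp downstream of its nearest start and 1976 bp from that of Argk2. The site had ranks 2936 and 1886 in replicates 1 and 3, and the thresholded list of replicate 2 had no peak there. In the ranked list of replicate 2 the highest −log10 IDR in the Doc1 window was 2.00 after rounding, at the threshold. Doc2 had a pair of overlapping peaks 1336 and 1535 bp upstream, with ranks 4319 and 4743, that overlapped a peak in no replicate list. A stronger summit at 9025902 (rank 1551) lay 6656 bp upstream of Doc2, outside the 2 kb limit, with ranks 764 and 2294 in replicates 1 and 3 and no peak in replicate 2. Doc3 had none in any list.

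Among the remaining regulators, the sites were single, weak or at other genes. pnr, a GATA factor of heart and dorsal ectoderm, had a promoter summit 148 bp upstream of a start (3R 16025931, rank 3761) that overlapped a peak in no replicate list. twi had 1 summit in its window, at 2R 22998849 (rank 3323). It lay 13475 bp downstream of the furthest upstream of the 3 annotated twi starts and 35 bp from the start of CG9896, and it too overlapped no replicate peak. nau, a myogenic bHLH factor, and H15 had no summit in their window in any list. mid had none in its window, but a site about 15 kb away was nearest to its start in replicate 2 (2L 5476916, rank 2239, 15277 bp) and replicate 3 (2L 5476820, rank 1399, 15181 bp), and in neither series-level list used here.

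Among the fusion genes, kirre and mbc had sites in every replicate, and sns and rols in 1 replicate. kirre (FBgn0028369, X 2740384 to 3134532, plus strand), whose immunoglobulin protein marks founder myoblasts, spans 394 kb with other genes inside it. It held 13 summits in the conservative list and 7, 8 and 6 in replicates 1, 2 and 3. Only 3 of the 13 were nearest to a start of kirre itself, at ranks 2459, 3276 and 3683, and those overlapped a peak in at most 1 replicate list. The 4 that recurred in all 3 replicates were nearest to genes inside or beside it.

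The highest of these 4, at 2786779, lay in an intron, 45974 bp from the nearest kirre start and 2543 bp from that of CG32795. It ranked 446 in the conservative list and 435, 458 and 489 in replicates 1, 2 and 3, with signals of 128, 138 and 113. The pair at 2743302 (rank 486) and 2744224 (rank 714) lay 344 and 148 bp from a start of Syx4, a syntaxin gene near the 5′ end of kirre. The fourth, at 2919973 (rank 838), lay 146 bp from the start of CG3588. A summit at 3134743 (rank 1835), beyond the 3′ end of kirre, was 127 bp from the start of N, the Notch receptor gene, with a peak in replicates 1 and 2. Across these sites the gene that the window names and the gene with the nearest start differed in 10 of 13 cases.

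mbc (FBgn0015513, 3R 23781765 to 23801634, plus strand), the exchange factor that activates Rac during fusion, had its strongest summit at 23781582. That is 183 bp upstream of its start and 39 bp from that of Nup98-96, a nucleoporin gene, so the site lies in the promoters of both. It ranked 663 in the conservative list and 1404, 533 and 626 in replicates 1, 2 and 3, with signals of 69.8, 128 and 97.8. Replicate 1 placed it lowest. An intronic summit 1506 bp downstream of the mbc start ranked 2107, and 1686 in replicate 1, with no peak in the others. Replicate 2 alone had overlapping peaks further into the gene, at ranks 2913 and 3338.

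sns, whose protein marks fusion-competent myoblasts, had a promoter summit 22 bp downstream of its start (2R 8798511, rank 3224), found in replicate 1 at rank 2952. rols, an adaptor of founder cells, had an intronic summit at 3L 12037967 (rank 2998), found in replicate 1 at rank 2422, and 1 at its promoter at 12056545 (rank 4285) in no replicate list. In replicates 2 and 3 the best ranked peaks of both genes had a −log10 IDR between 0.86 and 1.73, under the threshold.

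**Figure D3:**
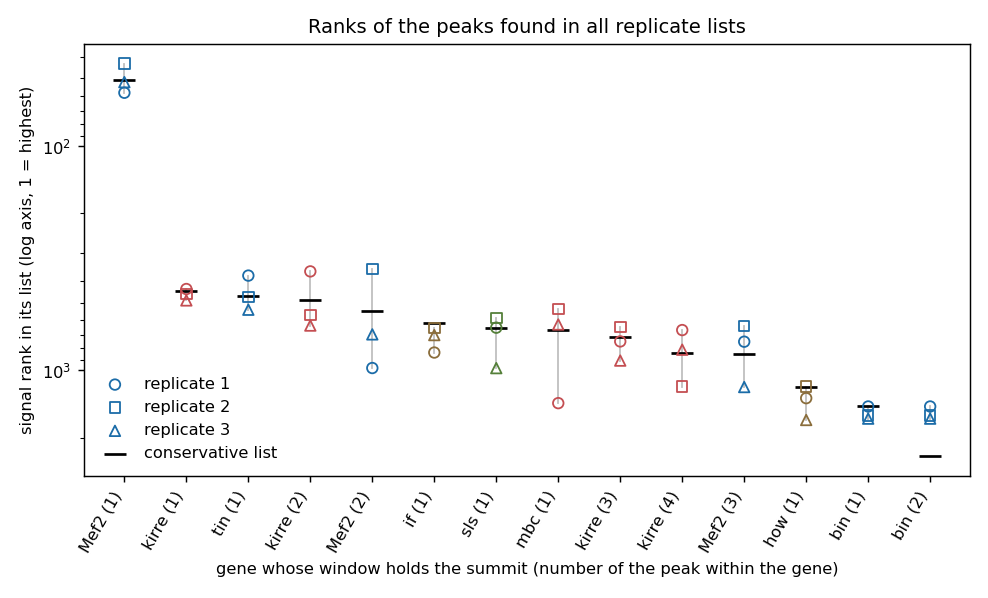
Signal rank (log axis, 1 at the top) in each replicate list and in the conservative list for the 14 recurrent conservative peaks in the members' windows. Colours are the gene groups (blue, regulators; red, fusion; green, contractile; brown, others). The first Mef2 peak lies at ranks 43 to 58 in the replicates, and the recurrent peaks at bin lie at 1453 to 1646.

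Among contractile protein genes, sls alone had a recurrent peak. sls (FBgn0086906, 3L 2039681 to 2115611, minus strand) encodes the titin-like Sallimus and kettin proteins of the Z-disc and I-band. Its summit at 2115886 lay 275 bp upstream of the only annotated start, just outside the 250 bp taken as promoter. The signal was 308 (rank 649) in the conservative list, and 107 (rank 647), 122 (rank 586) and 74.8 (rank 980) in replicates 1, 2 and 3. It was past the threshold in every replicate, and its order against the other sites was lowest in replicate 3.

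The myosin light chain genes had sites toward their 3′ ends. Mlc1, the essential light chain, had a summit in its 3′ UTR (3R 27657328, rank 2592), 2849 bp from its own start and 332 bp from that of tau, a microtubule-binding protein gene. It ranked 1632 and 3085 in replicates 1 and 2, and replicate 3 had no peak there. Mlc2, the regulatory light chain, had a peak in its 3′ UTR in every replicate, with summits at 3R 30172365, 30172265 and 30172341, ranks 2204, 2763 and 2392 and signals of 55.0, 47.6 and 25.9, yet none in the conservative list. These summits were nearest to the start of Rsod, and the longest of the series-level lists, with 6387 peaks, holds a peak there. In the ranked list behind the conservative list the best peak of the Mlc2 window had a −log10 IDR of 1.14.

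The actin genes of the list, Act57B and Act87E, and the myosin heavy chain gene Mhc had only weak sites. Act87E had a summit 460 bp upstream of a start (3R 13425523, rank 3515), with a peak in replicate 2 at rank 2636. Replicate 1 had another, on the other side of the gene, at 13428501 and rank 2377. Act57B had 2 overlapping peaks in its 3′ UTR, at ranks 3921 and 4857, in no replicate list, and a summit 4000 bp upstream, outside the 2 kb limit, at rank 3684 with a peak in replicate 3. Mhc had 1 summit in a coding exon, 8584 bp from a start (2L 16777195, rank 4441), in no replicate list. wupA (troponin I) and Tm1 (a tropomyosin) each had an intronic summit, at ranks 4607 and 4367, that also overlapped no replicate peak.

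For up (troponin T), Tm2 (a tropomyosin) and bt (the titin-like projectin, on chromosome 4) no summit was found in the conservative or the replicate lists. Their best ranked peaks stayed under the threshold in each replicate, at −log10 IDR values of 0.30 to 0.94 for up, 1.42 to 1.46 for Tm2 and 0.20 to 1.23 for bt. Tm1 differed in that replicate 1 ranked 3 peaks past the threshold, the best at 3R 15292479 with a −log10 IDR of 3.20, that its thresholded list lacks. The conservative list likewise lacks a Tm1 peak at 15292484 with a −log10 IDR of 2.10.

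**Figure D4:**
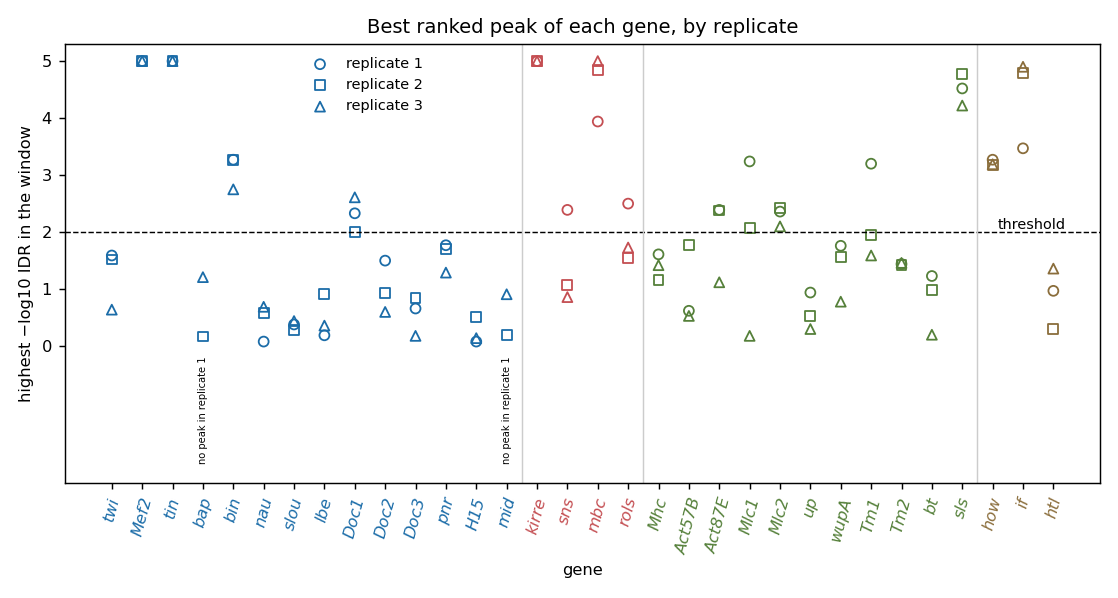
Highest −log10 IDR of any peak with its summit in the window of each gene (x axis) in the ranked list of each replicate (symbols), with the threshold of 2 as a dashed line. Values end at 5 in these lists. Mef2, tin and kirre are at 5 in all 3 replicates, and bap and mid have no ranked peak in replicate 1.

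The 3 members outside these groups differed among themselves. how (FBgn0264491, 3R 22042191 to 22079321, plus strand), the STAR-family RNA-binding protein Held out wings of muscle and tendon, had 1 summit, in an intron 7135 bp downstream of its start at 22049326. Its signal was 217 (rank 1184), and 71.6 (rank 1334), 82.4 (rank 1184) and 52.1 (rank 1669) in replicates 1, 2 and 3, so it recurred in each. if (FBgn0001250, X 16752189 to 16783434, minus strand), the integrin alpha subunit Inflated at muscle ends, had its strongest summit beyond its 3′ end at 16751940 (rank 617, and 835, 650 and 698 in replicates 1, 2 and 3), 30 bp from the start of goe. Its own promoters had summits at ranks 3024 and 3221, the first with a peak in replicate 2 and the second in no replicate. htl, the FGF receptor Heartless of the early mesoderm, had a summit in none of the lists, with best −log10 IDR values of 0.97, 0.30 and 1.36.

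Compared by group, the summits at contractile protein genes had the lowest median rank. The order of regulators and fusion genes turned when Mef2 alone was left out, and not when kirre was left out as well. The 16 summits at regulators had a median rank of 2374, the 18 at fusion genes 2569 and the 8 at contractile protein genes 4144, where the whole list has a median of 2472. The 4 summits at how and if had a median of 2104. Without Mef2, which gave 8 of the regulators' 16, the median of the regulators was 2872, and without kirre that of the fusion genes was 2998, both left out after the values were seen. The recurrent summits of the regulators lay at Mef2, tin and bin only, and the 2 at bin stand for 1 site. Of the regulators' 16, 6 (37.5%) were recurrent and 4 (25%) overlapped a peak in no replicate list. Of the fusion genes' 18 it was 5 (27.8%) and 4 (22.2%), and of the 8 at contractile protein genes 1 (12.5%) and 5 (62.5%). For all 4943 summits these shares were 36.2% and 20.5%. Of the 5 summits at contractile protein genes without a replicate peak, 2 belong to the overlapping peaks of Act57B, which form 1 merged region. The longest list holds 13 summits at contractile protein genes in place of 8. At the promoter class, within 250 bp of a start of any protein-coding gene, were 5 of 16, 6 of 18 and 0 of 8, where it holds 51.4% of the conservative list. These are counts of few summits and no test was made of them.

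By genes, 28.6%, 21.4% and 28.6% of regulators had a summit in their window in replicates 1, 2 and 3, and 36.4%, 36.4% and 18.2% of contractile protein genes. All protein-coding genes stood at 32.4%, 31.3% and 25.4%, so the regulators were below them in replicates 1 and 2 and above in replicate 3, and the contractile protein genes the reverse. The difference, regulators minus contractile, was -7.79, -14.9 and 10.4 percentage points, a mean of -4.11 ± 13.1 (SD, n = 3), and did not keep 1 direction (exact sign-flip permutation test over the 3 lists, two-sided, p = 0.75, the smallest possible being 0.25). Without replicate 2 the mean was 1.3, and with the 2500 highest peaks of each list it was 2.6. With summits in the gene body alone it was -8.01 and below 0 in all 3 lists, at -11, -11 and -1.95 (the same exact test, p = 0.25, the smallest possible). Behind these values are 7.14% of regulators in each list, and 18.2%, 18.2% and 9.09% of contractile protein genes. Such shares of 14 and 11 genes rest on very few genes. The gene bodies also differ in length, with medians of 5.76 kb for regulators and 9.11 kb for contractile protein genes. The fusion genes, at 100%, 50% and 50%, are 4 genes, of which kirre alone covers most of the sequence searched.

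**Figure D5:**
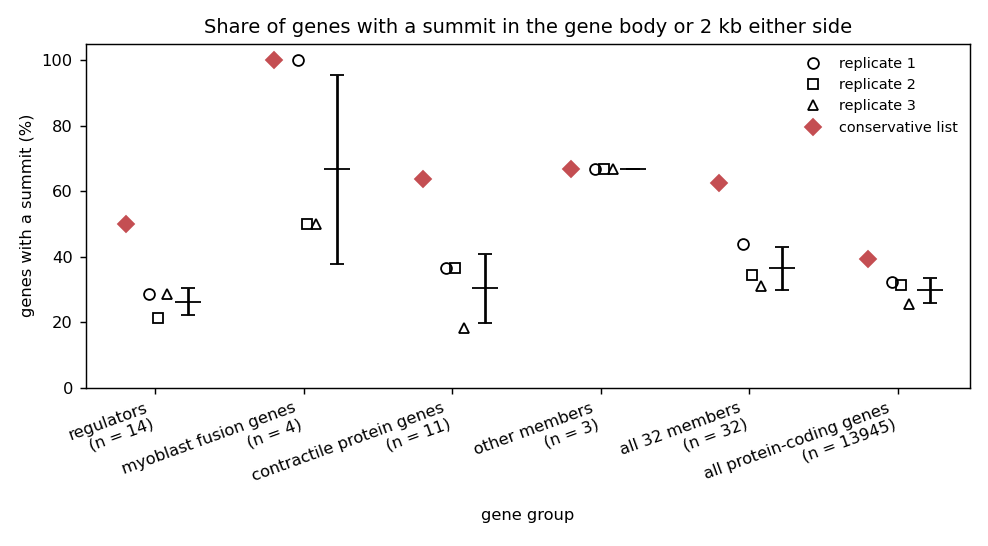
Share of genes with a summit in the gene body or 2 kb either side, by gene group, in the conservative list (red diamonds) and in the 3 replicate lists (open symbols, with their mean ± SD as bars). For regulators and contractile protein genes the replicate symbols span 21.4% to 28.6% and 18.2% to 36.4%, and for all 32 members 31.2% to 43.8%.

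The members are longer than most genes, and over all genes a longer window was more often called. Their median length was 8.81 kb, with 5.76 kb for regulators, 57.1 kb for fusion genes and 9.11 kb for contractile protein genes, against 2.17 kb for all protein-coding genes. Among genes under 5 kb, 6 of 10 members and 33.4% of all genes had a conservative summit in the window. Among those of 5 to 20 kb it was 4 of 11 members and 55.1%, and among those of 20 kb or more 10 of 11 and 61.1%. In replicates 1, 2 and 3 the members called under 5 kb were 6, 5 and 4 of 10, where 27.1%, 26.5% and 21.7% of all genes were. At 5 to 20 kb it was 1 of 11 in each, against 46.3%, 43.7% and 34.1%. At 20 kb or more it was 7, 5 and 5 of 11, against 53.3%, 51.1% and 43.1%. Per sequence searched the members held 46 summits in 1129 kb, or 4.07 per 100 kb, and all genes 4.54 per 100 kb over their merged windows. The regulators had 6.72, the fusion genes 3.31 and the contractile protein genes 3.09 per 100 kb. Mef2 alone held 8 of the regulators' 16 summits, and at bin and at Doc2 the 2 summits belong to 1 merged region. Among the contractile protein genes the same holds for the 2 summits of Act57B. The density of the regulators without Mef2 was not computed. Genes of 20 kb or more had 2.95 over their merged windows, and the members without kirre had 4.51. The fusion genes thus lay below all genes and above the long genes in density.

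With the nearest annotated start as the rule in place of the window, 17 of 32 members (53.1%) were nearest to a conservative summit, where 23.9% of all genes were. The length of the genes and their number of starts were not taken into account under this rule. Lost were twi, Doc1 and Mlc1, since their summits lay nearer to CG9896, Argk2 and tau. In replicates 1, 2 and 3 the count was 9, 10 and 10, where 19.1%, 18.3% and 14.4% of all genes were nearest, a mean of 30.2% ± 1.80 (SD, n = 3) for the members against 17.3% ± 2.51. For regulators the mean was 33.3% ± 8.25, for fusion genes 41.7% ± 14.4 and for contractile protein genes 18.2% in each list.

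In all, 9 members had a summit in 3 of 3 replicate lists by the window rule (28.1%, against 20.9% of all genes). They were Mef2, tin, bin, kirre, mbc, Mlc2, sls, how and if. At 4 of them (tin, bin, sls and how) every recurrent conservative summit was also nearest to the member's own start. In the longest series-level list 22 members had a summit in the window, where 45.5% of all genes had one, and 21 were nearest to a summit, where 29.0% were. Mlc2, up and Tm2 had a summit there and not in the conservative list, and Act57B the reverse. The 9 members with a summit in the window in no list, conservative, longest or replicate, were bap, nau, slou, lbe, Doc3, H15, mid, bt and htl, which is 28.1% of the members, against 52.0% of all protein-coding genes. Of these 9, 7 were regulators, or 50% of that group, close to the share over all genes.

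The sequence under the summits was compared with that of all peaks by counting short words within 100 bp, on either strand, without any test. Of the 46 windows, 6 (13.0%) held TAATTA, a word of homeodomain factors such as Dbx, as 13.1% of all conservative windows and 9.39% of 19252 windows of the same length at annotated protein-coding starts did. CATATG was in 1 (2.17%, against 6.41% and 4.06%), the tin window. CACTTGA, of the NK-2 class that Tinman belongs to, was in 2 (4.35%, against 3.40% and 3.30%), and the MEF2 site in 5 (10.9%, against 9.63% and 5.97%). GAGAG, of GAGA factor, was in 8 (17.4%, against 27.4% and 25.0%), with 10 matches, some of them overlapping, in the pnr promoter alone. TATCGAT, of DREF and BEAF-32, was in 2 (4.35%, against 10.8% and 12.7%) and GGTCACA in 3 (6.52%, against 4.45% and 7.04%). The median GC content was 39.3% both for the member windows and for all conservative windows.

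A further 64 genes of mesoderm and muscle, were counted in the same way by role. A conservative summit lay in the window of 34 (53.1%, against 39.3% of all genes), and 14 (21.9%, against 19.7%) had a recurrent peak. In replicates 1, 2 and 3 the count was 24, 24 and 20 of 64, where 32.4%, 31.3% and 25.4% of all genes had a summit. Some of these genes are long, such as Msp300 at 106 kb, and their length was not taken into account. By role these 14 were 3 of 16 regulators, 2 of 15 fusion genes, 4 of 19 contractile and sarcomere genes and 5 of 14 genes of muscle attachment or FGF signalling. The highest were Msp300, a nesprin of muscle nuclei (rank 223, an intron), tmod, the actin-capping tropomodulin (rank 301, an intron), org-1, a T-box factor of founder cells (rank 387, 370 bp from its start), and zfh1, a zinc finger homeodomain factor (rank 541, an intron). Hem, a subunit of the SCAR complex, followed tmod and org-1 with rank 414, in the promoter of IleRS, and tup and Actn likewise had their site at the promoter of a neighbour, CG10602 and usp. At attachment genes the sites were in mys, the integrin beta subunit (rank 1283, 58 bp from its start), mew, an integrin alpha subunit (rank 1297, 22905 bp from its start and nearest to that of CG32639), rhea, the talin gene (rank 816), sr, the tendon cell factor Stripe (rank 1337), and Grip (rank 698, 14681 bp from its start and nearest to that of CG5966). dock (rank 1941) and Mlp60A (rank 2310) completed the 14.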

How the data were processed

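ChIP-seq peak lists of 3 biological replicates of 1 group of Dbx-eGFP embryos were used. The authors' lists are on dm6 and were ranked and thresholded by IDR, per the readme text beside the files. Which aligner and peak caller they used is not given in the sources used here. Each list gives the authors' deposited signal (enrichment) of a peak, used only to rank peaks within that list, and the ranked lists give the deposited −log10 of the IDR. Every thresholded peak on the 6 arms had an IDR of at most 0.01. The columns of unnamed single samples in the series-level ranked list, 8 in number, were not used. The text does not say which replicates the conservative list compares. An age field in the labels cannot hold hours of an embryo, so the age is that of the source name.

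Summits were set against protein-coding genes of Ensembl release 115, with coordinates 1-based. Of 30593 annotated start codons, 99.8% read ATG in the RefSeq sequence, and no peak or gene passed a chromosome end. A start at equal distance from 2 genes counted for both. Peaks overlapped when they shared 1 bp. Genes under one window can share a summit, and windows were merged for densities. Python 3.11.15, NumPy 2.4.6 and pandas 2.3.3 were used, and the assignment of summits was tested on planted positions. The members, lists and words were chosen with earlier results of these data known. All 32 members are named, the 10 of best rank and those recurrent in all replicates in full. The other 64 genes were named when recurrent, and 2 of them were matched through synonyms.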

Additional observations from a re-analysis of the deposited data

How the results depend on the processing

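The main counts were recomputed under other settings. With the 500 conservative peaks of highest signal, members with a summit in the window fell to 3 of 32 (2 regulators, 1 fusion gene and 0 contractile protein genes; 6.82% of all genes), members nearest to a summit to 1 (3.48% of all genes), and summits to 4. With conservative peaks found in all 3 replicate lists, these were 8 members (3 regulators, 2 fusion genes and 1 contractile protein gene; 19.7% of all genes), 5 nearest members (10.8% of all genes) and 14 summits. Both settings use fewer peaks by construction. With the gene body alone 13 of 32 members had a summit, 2 of them regulators, where 13.9% of all genes had one. The members are longer, with a median of 8.81 kb against 2.17 kb for all genes, and length was not taken into account there. With summits within 1 kb of a start 8 of 32 members were nearest, where 19.9% of all genes were. Regulators minus contractile protein genes turned from -4.11 to 2.6 percentage points with the 2500 highest peaks of each replicate list, was -8.01 with the gene body alone, and ran from -11.4 to 1.3 with 1 replicate left out. The cause was not tested. Where run, the longest list, a 5 kb flank and the stricter overlap kept the counts of members, in all and by group, and the total of summits within 1.5 times, while summits at contractile protein genes went from 8 to 13 in the longest list. The same counts stayed within 1.5 times under 2 settings added after seeing the data. Leaving out summits at another gene's promoter gave 19 members and 40 summits, and the share of all genes under that setting was not computed. Putting back peaks past the threshold gave 47 summits and 20 members with a summit in the window, where 39.8% of all genes had one. The mean count over replicates ran from 10.5 to 12.5, and recurrent members from 8 to 9, with 1 replicate left out. No paired analysis was possible because there is 1 group. Depth is unknown, so a gene without a summit is one not past the threshold in these lists.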
